A study of Mus musculus with 9 samples.

Results

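Respiratory complex I, the NADH:ubiquinone oxidoreductase of the inner mitochondrial membrane, was examined through its nuclear genes in livers of atherosclerosis-prone mice. Members were the protein-coding genes named Nduf with the letter a, b, c, s, v, ab or af and a number, 48 of the 27179 genes in the count table. Of these, 40 encode subunits or proteins named as such and 8 encode Ndufaf assembly factors, which help to build the enzyme but are not part of it. A further 3 pseudogenes that carry such a name were left out, and Ndufb1 was not analysed here. All 48 passed the filter on low counts.

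Bulk RNA sequencing had been run on frozen liver sections of female mice, to ask how loss of MIF-2 alters hepatic gene expression in advanced atherosclerosis. One group was Apoe-/- (5 libraries) and the other Mif-2-/- Apoe-/- (4 libraries), on a C57BL/6 background, so every animal lacked apolipoprotein E and the controls were not wild-type. Both groups received a cholesterol-rich high-fat diet (HFD) for 12 weeks, starting at 8 weeks of age. The deletion of Mif-2, the gene also called Ddt, was present in all tissues, so the data cannot tell a loss in hepatocytes from a loss elsewhere. Lysates of 3 to 4 sections were combined for each library, and poly(A) RNA was amplified by Smart-seq2, a full-length method that does not keep strand. The labels do not tie libraries to animals, and the study describes fewer Apoe-/- mice than there are libraries, so p-values measure the spread between these libraries and some may share an animal.

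Complex I takes electrons from NADH, passes them along flavin and iron-sulfur clusters to ubiquinone and pumps protons as it does so. The NADH-oxidising N module and the ubiquinone-binding Q module form its peripheral arm, and the membrane arm has a proximal part near the Q module and a distal part. The catalytic core is shared between nuclear genes and the mitochondrial genome, and the remaining accessory subunits are all nuclear. In hepatocytes the enzyme reoxidises NADH from fatty acid oxidation and the citric acid cycle.

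The genotype labels were checked first. Ddt had 4304, 4806, 1815, 4820 and 1205 counts in Apoe-/- replicates 1 to 5 and 27, 6, 21 and 11 counts in Mif-2-/- Apoe-/- replicates 1 to 4 (p = 0.00794 by a two-sided exact permutation test, which can go no lower with 9 libraries). Total counts ranged from 2318148 to 10764182 per library. The tissue label was borne out by Alb, the hepatocyte albumin gene, at 93692 counts or more in each library. Of 12 hepatocyte markers, all were detected. Brown adipocyte markers (4 genes) took 0.00307% of the counts or less. Muscle markers (7 genes, skeletal and cardiac) took 0.0165% to 0.0792%. Some reached the level of complex I subunits in CPM, which is not corrected for transcript length. Myh6, a cardiac myosin with a long transcript of 6113 bases, was at 101, 241, 381, 199.6 and 166 CPM in Apoe-/- and 220.4, 329, 365 and 196 CPM in Mif-2-/- Apoe-/- libraries. The cardiac troponin Tnnt2 averaged 133 and 145 CPM. All 7 had the lower mean in Apoe-/- livers, none was called by either tool, and the source of these reads was not tested.

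The libraries did not sort fully by genotype. The 10 genes with the highest mean took 20.5%, 20.9%, 23.7%, 23.6% and 14.7% of the counts in Apoe-/- replicates 1 to 5 and 12.5%, 26.3%, 13.3% and 17.0% in Mif-2-/- Apoe-/- replicates 1 to 4. Genes with transcripts of up to 1 kb took 18.5%, 18.9%, 20.9%, 21.5% and 12.3% in the former and 9.84%, 19.3%, 8.52% and 13.4% in the latter. Apoe-/- replicate 5 thus resembled most Mif-2-/- Apoe-/- libraries in makeup, and Mif-2-/- Apoe-/- replicate 2 resembled the other Apoe-/- libraries. Both stayed in the tests, and values without them are given where they matter.

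The nuclear subunits were on average higher in Apoe-/- livers, but the libraries overlapped and 0 of 40 passed the test after adjustment. Levels are given as CPM, counts per 1e6 counts outside the 10 most abundant genes with TMM scaling, and fold changes as log2 of Apoe-/- over Mif-2-/- Apoe-/-. Summed over the 40 subunits, the level was 13828, 15060.3, 15308, 19786 and 6060 CPM in Apoe-/- replicates 1 to 5. In Mif-2-/- Apoe-/- replicates 1 to 4 it was 4923, 12877, 3683 and 6481 CPM. Replicates 1 to 4 of Apoe-/- were the highest, Mif-2-/- Apoe-/- replicate 2 came next, and Apoe-/- replicate 5 lay within the range of the other Mif-2-/- Apoe-/- libraries. The mean sum was 14009 ± 4985 CPM (SD, n = 5) in the first group and 6991 ± 4087 CPM (SD, n = 4) in the second.

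**Figure D1:**
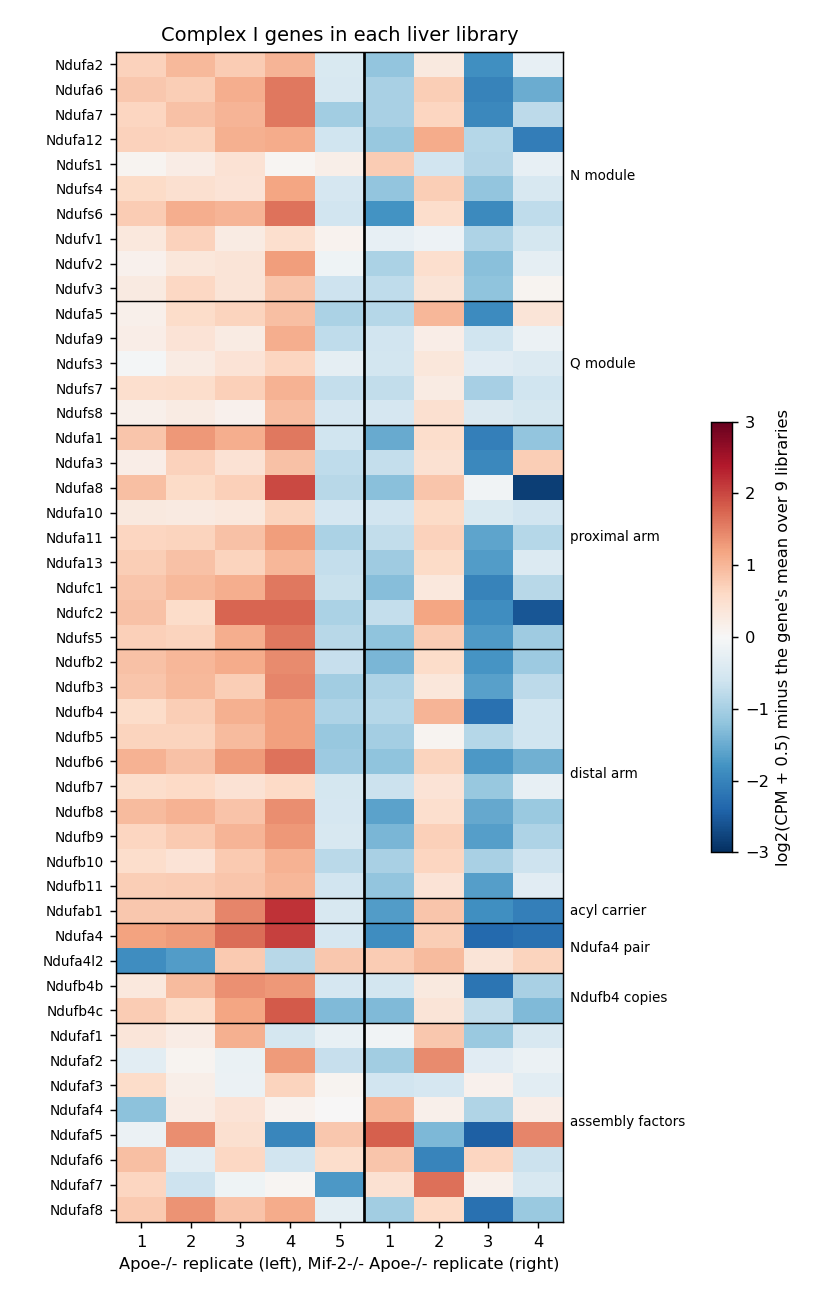
Each row is 1 of 47 genes and each column 1 library. Colour is log2(CPM + 0.5) minus the gene's mean over the 9 libraries, red for higher and blue for lower. Most subunit rows are red in Apoe-/- replicates 1 to 4 and Mif-2-/- Apoe-/- replicate 2, while the 8 assembly factor rows show no shared order.

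By edgeR's quasi-likelihood test with Benjamini-Hochberg adjustment over all 16860 genes, 10 genes were called higher in Apoe-/- livers, 0.0593% of those tested, and 12 lower. None of the 40 subunits and none of the 8 assembly factors was among them. Without adjustment, 20 of 40 subunits (50.0%) had a p-value under 0.05 and a higher level in Apoe-/- livers, where 6.52% of all genes did, and 1 of 8 assembly factors, Ndufaf8, did as well. DESeq2 called 4 of 40 subunits (10%) higher and no assembly factor, against 2.52% of the 14030 genes to which it gave an adjusted p. Among genes with transcripts of up to 1 kb at 50 CPM or more, that share was 14.2%. Of the 40 subunits, 1 had every Apoe-/- library above every Mif-2-/- Apoe-/- library, a share of 2.5% that was near the 2.24% of all genes.

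The median log2 fold change of the 40 subunits was 1.11, and 39 lay above 0. Among the 39 is Ndufb4c, which passed the low-count filter only through the Apoe-/- libraries, so the filter fixed its direction. Without it and the related Ndufb4b the median was 1.06. Over all genes tested, the median was -0.17 and 43.5% lay above 0. For the assembly factors the median was 0.10, with 4 of 8 above 0. Without Mif-2-/- Apoe-/- replicate 2 edgeR called 262 genes, 11 of them subunits. Without both that library and Apoe-/- replicate 5 it called 1345 genes, among them 32 of 40 subunits, with a subunit median of 1.95. These 2 libraries were chosen after seeing the data and lie nearest the other genotype in these very genes, so the larger count shows only how far the outcome rests on them. With the share of the 10 most abundant genes as a covariate, edgeR called 0 subunits and the median was 0.73.

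**Figure D2:**
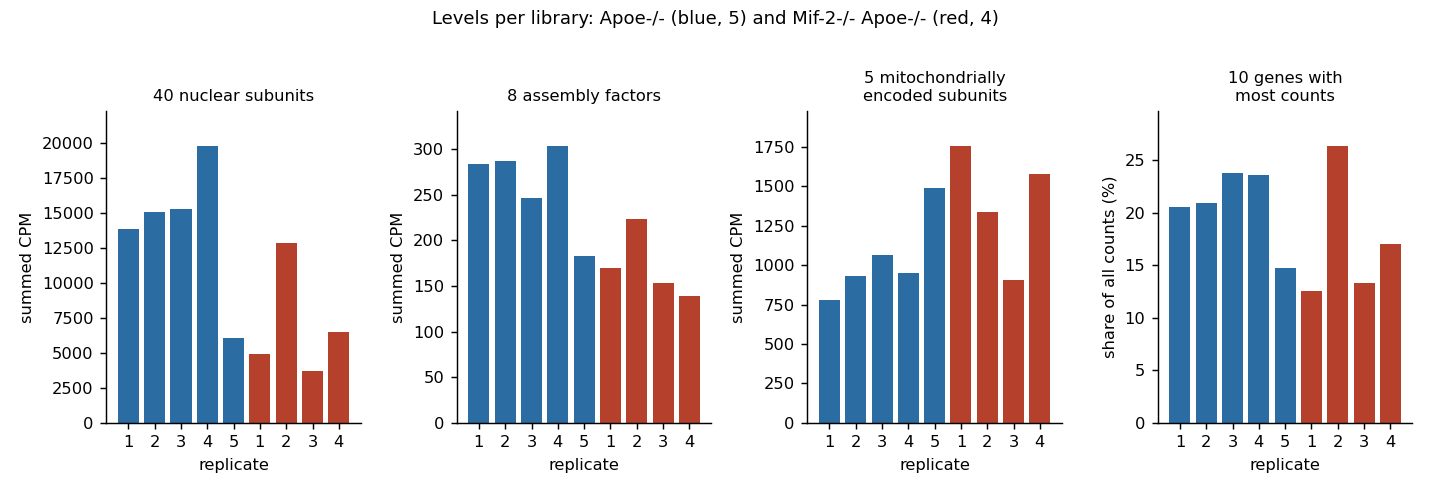
Bars give, for each library, the summed CPM of the 40 nuclear subunits, of the 8 assembly factors and of 5 mitochondrially encoded subunits, and the percentage of counts in the 10 most abundant genes. Apoe-/- replicate 5 and Mif-2-/- Apoe-/- replicate 2 change places in the first and the last panel, and the mitochondrial genes show another order.

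In the N module, which oxidises NADH, all 10 subunits had the higher mean in Apoe-/- livers, with a median log2 fold change of 0.90. Ndufv1 holds the flavin and binds NADH. It lies on chromosome 19 (GRCm38, minus strand) from 4007384 to 4012806. Its level was 307, 398, 290.1, 347 and 265 CPM in Apoe-/- replicates 1 to 5 and 207, 221, 128 and 172 CPM in Mif-2-/- Apoe-/- replicates 1 to 4. Of the 48 genes, this was the only one with each Apoe-/- library above each Mif-2-/- Apoe-/- library. Mean level was 322 ± 52.4 CPM (SD, n = 5) with Mif-2 and 182 ± 41.4 CPM (SD, n = 4) without it, and the log2 fold change was 0.82 (SE 0.28). The edgeR adjusted p was 0.199 and that of DESeq2 0.0153.

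Ndufv2 carries an iron-sulfur cluster beside the flavin. It was at 92.7, 108, 111, 204 and 77.1 CPM in Apoe-/- and 43.5, 119.8, 35.3 and 70.6 CPM in Mif-2-/- Apoe-/- livers. Replicate 2 of Mif-2-/- Apoe-/- exceeded all Apoe-/- libraries except replicate 4, and the log2 fold change of 0.82 (SE 0.42) had an edgeR adjusted p of 0.363. Ndufs1, the largest subunit, bears further clusters of the chain, and lies on chromosome 1 (minus strand) from 63143596 to 63176833. Its levels were 35.4, 38.9, 45.1, 34.7 and 37.8 CPM against 57.1, 22.1, 17.9 and 27.9 CPM. The Apoe-/- libraries were close together, and Mif-2-/- Apoe-/- replicate 1 was the highest of all, an order shared with no other subunit. For Ndufs1 the log2 fold change was 0.29 (SE 0.43, edgeR adjusted p = 0.798).

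Ndufs6, a zinc-binding accessory subunit of this module, was at 453, 569, 539, 823 and 180.2 CPM in Apoe-/- and 77.1, 382, 71.1 and 158 CPM in Mif-2-/- Apoe-/- livers. The fifth Apoe-/- library lay below Mif-2-/- Apoe-/- replicate 2 and just above replicate 4, and the log2 fold change was 1.58 (SE 0.53, edgeR adjusted p = 0.184). The other accessory subunits, Ndufv3, Ndufs4, Ndufa2, Ndufa6, Ndufa7 and Ndufa12, had log2 fold changes from 0.62 (Ndufv3) to 1.42 (Ndufa6). An unadjusted p-value under 0.05 was reached by 5 of the 10 genes of the module, namely Ndufv1, Ndufs6, Ndufa2, Ndufa6 and Ndufa7. Among all genes 6.52% did so with the higher level in Apoe-/- livers, and 42.5% among genes up to 1 kb at 50 CPM or more.

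In the Q module, which reduces ubiquinone, all 6 subunits had the higher mean in Apoe-/- livers, with a median log2 fold change of 0.52. Ndufs7, which holds the last iron-sulfur cluster before ubiquinone, was at 828, 846, 958, 1199 and 357 CPM in Apoe-/- and 350.0, 695, 291 and 386 CPM in Mif-2-/- Apoe-/- livers. Its lowest Apoe-/- library was again replicate 5 and its highest Mif-2-/- Apoe-/- library replicate 2, with a log2 fold change of 0.96 (SE 0.38, edgeR adjusted p = 0.253). Ndufs8, which carries clusters upstream of it, was at 455, 487, 444, 776 and 285 CPM and at 289, 572, 302 and 283 CPM. Its difference was small, 0.44 (SE 0.35) on the log2 scale. Ndufs3, a core subunit without a cluster, was at 149, 183, 207, 241 and 128 CPM and at 105, 195, 122 and 116 CPM. The ranges overlapped widely for Ndufs8 and Ndufs3, with edgeR adjusted p-values of 0.578 and 0.534.

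Ndufa9 and Ndufa5 are accessory subunits of this module. Ndufa9, of the dehydrogenase/reductase family, was at 125, 145, 131, 233 and 64.3 CPM in Apoe-/- and 73.6, 126, 71.8 and 97.4 CPM in Mif-2-/- Apoe-/- livers. This was a difference of 0.60 on the log2 scale (SE 0.37, edgeR adjusted p = 0.458). Ndufa5 was at 181, 238, 259.6, 306 and 83.6 CPM against 89.5, 323, 43.8 and 213 CPM, with Mif-2-/- Apoe-/- replicate 2 the highest library of all. For Ndufa5 the log2 fold change was 0.36 (SE 0.51, edgeR adjusted p = 0.789), and its direction turned, to -0.10, with the top-gene share as covariate.

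**Figure D3:**
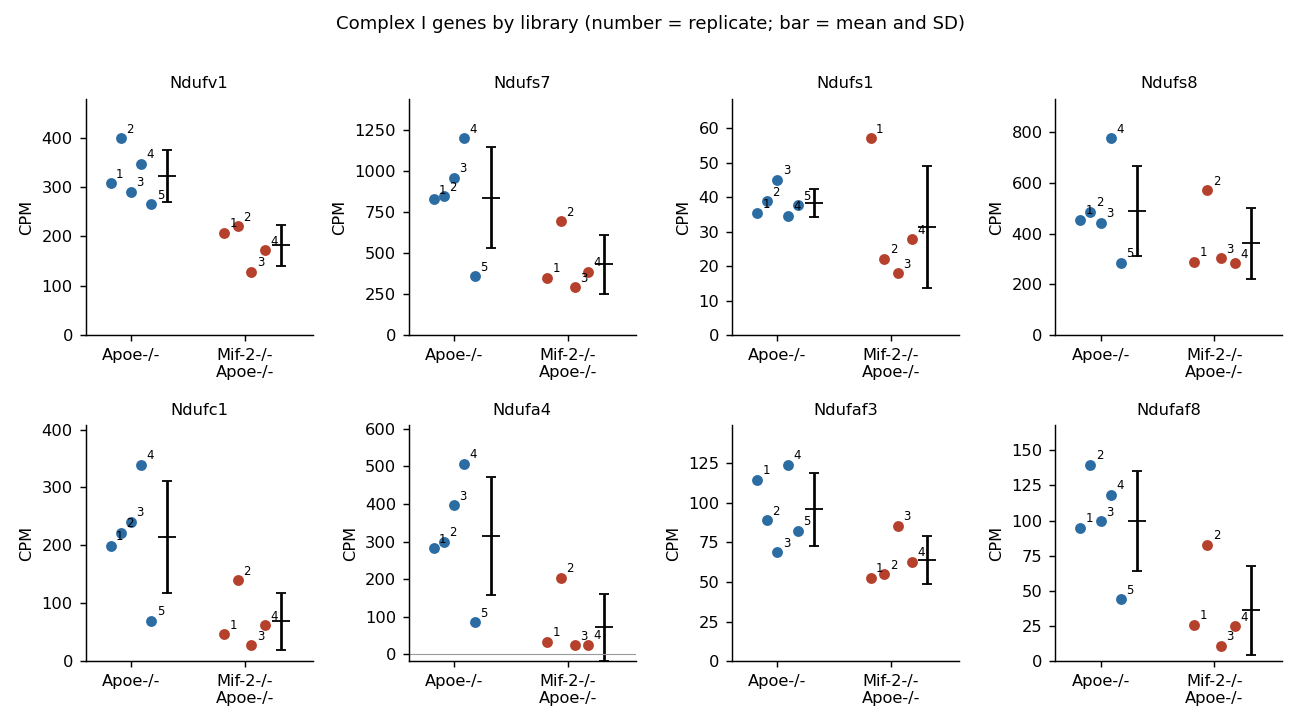
CPM of 8 genes in each library, Apoe-/- in blue (n = 5) and Mif-2-/- Apoe-/- in red (n = 4). Numbers are replicates and black bars the mean and SD. The genotypes are apart for Ndufv1, while in Ndufs7, Ndufc1, Ndufa4 and Ndufaf8 replicate 5 of Apoe-/- falls below replicate 2 of Mif-2-/- Apoe-/-.

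Among the 9 subunits of the proximal membrane arm the median log2 fold change was 1.24, and all were higher on average in Apoe-/- livers. Ndufa1 is a small X-linked subunit at the junction of both arms, on chromosome X (minus strand) from 37187588 to 37191163. It was at 151, 209, 178, 249.95 and 55.2 CPM in Apoe-/- and 29.3, 120.4, 19.9 and 36.6 CPM in Mif-2-/- Apoe-/- livers. Apoe-/- replicates 1 to 4 lay above all Mif-2-/- Apoe-/- libraries, and replicate 5 was below replicate 2 of the other genotype. Mean levels of 169 ± 73.3 CPM (SD, n = 5) in the former and 51.5 ± 46.4 CPM (SD, n = 4) in the latter gave a log2 fold change of 1.72 (SE 0.55, edgeR adjusted p = 0.175).

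Ndufc1, another short subunit of this arm, was at 199, 222, 241, 339 and 70.3 CPM in Apoe-/- and 46.6, 139.7, 27.7 and 62.9 CPM in Mif-2-/- Apoe-/- livers. As for Ndufa1, Apoe-/- replicates 1 to 4 lay above all Mif-2-/- Apoe-/- libraries and replicate 5 below replicate 2 of these, and the log2 fold change was 1.64 (SE 0.50) with adjusted p-values of 0.171 (edgeR) and 0.0450 (DESeq2). Ndufa10 and Ndufa3 had the smallest fold changes of this arm. Ndufa10, which resembles nucleoside kinases, was at 181, 178, 183, 236 and 104 CPM against 99.4, 219, 107 and 99.2 CPM. Ndufa3 was at 229, 319, 270.0, 366 and 117 CPM against 121, 271, 51.9 and 329.9 CPM, with Mif-2-/- Apoe-/- replicate 4 the highest of its genotype, seen in no other subunit. Both had a log2 fold change of 0.43, with edgeR adjusted p-values of 0.584 and 0.714. For the other 5, Ndufa8, Ndufa11, Ndufa13, Ndufc2 and Ndufs5, the log2 fold change ran from 1.02 (Ndufa11) to 1.35 (Ndufc2).

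Over the 10 subunits of the distal membrane arm the median log2 fold change was 1.22, and 7 of them reached an unadjusted edgeR p-value under 0.05. With the higher level in Apoe-/- livers, 6.52% of all genes did so, and 42.5% of genes up to 1 kb at 50 CPM or more. Ndufb6, a single-pass accessory subunit on chromosome 4 (minus strand) from 40270591 to 40279421, was at 282, 249.5, 329.6, 420.3 and 63.7 CPM in Apoe-/- and 58.6, 218, 41.3 and 49.6 CPM in Mif-2-/- Apoe-/- livers. Apoe-/- replicate 5 was close to the 3 lower Mif-2-/- Apoe-/- libraries, and replicate 2 of Mif-2-/- Apoe-/- was close to the 4 higher Apoe-/- libraries. For Ndufb6 the log2 fold change was 1.56 (SE 0.57, edgeR adjusted p = 0.220). The other 9 ranged from 0.68 (Ndufb7) to 1.53 (Ndufb8), and in each of the 10 genes Apoe-/- replicate 5 was the lowest of its genotype and Mif-2-/- Apoe-/- replicate 2 the highest.

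Ndufb4 has the retrocopies Ndufb4b and Ndufb4c, whose reads cannot be told from its own with certainty. Ndufb4 averaged 95.4 ± 41.4 CPM (SD, n = 5) with Mif-2 and 50.6 ± 47.2 CPM (SD, n = 4) without it, and Ndufb4b at 7.64 ± 3.64 and 2.52 ± 1.94 CPM. Ndufb4c had 0, 2, 1 and 0 counts in Mif-2-/- Apoe-/- libraries, at or under the 3 counts taken as a floor. Its fold change was therefore not read as that of a single gene, though counts and medians over all subunits include it. Without both copies the median of the remaining 38 subunits was 1.06.

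Ndufab1 encodes the mitochondrial acyl carrier protein, which sits in complex I and also serves fatty acid, lipoate and iron-sulfur cluster synthesis. It was at 124, 125, 198, 321 and 50.9 CPM in Apoe-/- and 21.8, 128, 19.4 and 16.7 CPM in Mif-2-/- Apoe-/- livers. Replicate 2 of Mif-2-/- Apoe-/- stood far from its 3 companions and beside Apoe-/- replicates 1 and 2. For Ndufab1 the log2 fold change was 1.84 (SE 0.66, edgeR adjusted p = 0.213).

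Ndufa4 was first counted with complex I and is now assigned to cytochrome c oxidase, complex IV. It had the largest fold change of the 48 genes apart from Ndufb4c. Its levels were 283, 299, 396, 507 and 86.2 CPM in Apoe-/- and 33.6, 204, 23.9 and 25.6 CPM in Mif-2-/- Apoe-/- livers. This was a difference of 2.15 on the log2 scale (SE 0.67) with adjusted p-values of 0.174 (edgeR) and 0.0432 (DESeq2). Its paralog Ndufa4l2, known as a hypoxia-induced gene, was the only subunit with the lower mean in Apoe-/- livers. It was at 2.88, 3.35, 20.7, 6.45 and 20.9 CPM in Apoe-/- and 20.3, 23.3, 15.6 and 19.2 CPM in Mif-2-/- Apoe-/- livers. Apoe-/- replicates 1, 2 and 4 were low, and replicates 3 and 5 lay among the Mif-2-/- Apoe-/- libraries. For Ndufa4l2 the log2 fold change was -0.86 (SE 0.71, edgeR adjusted p = 0.595).

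**Figure D4:**
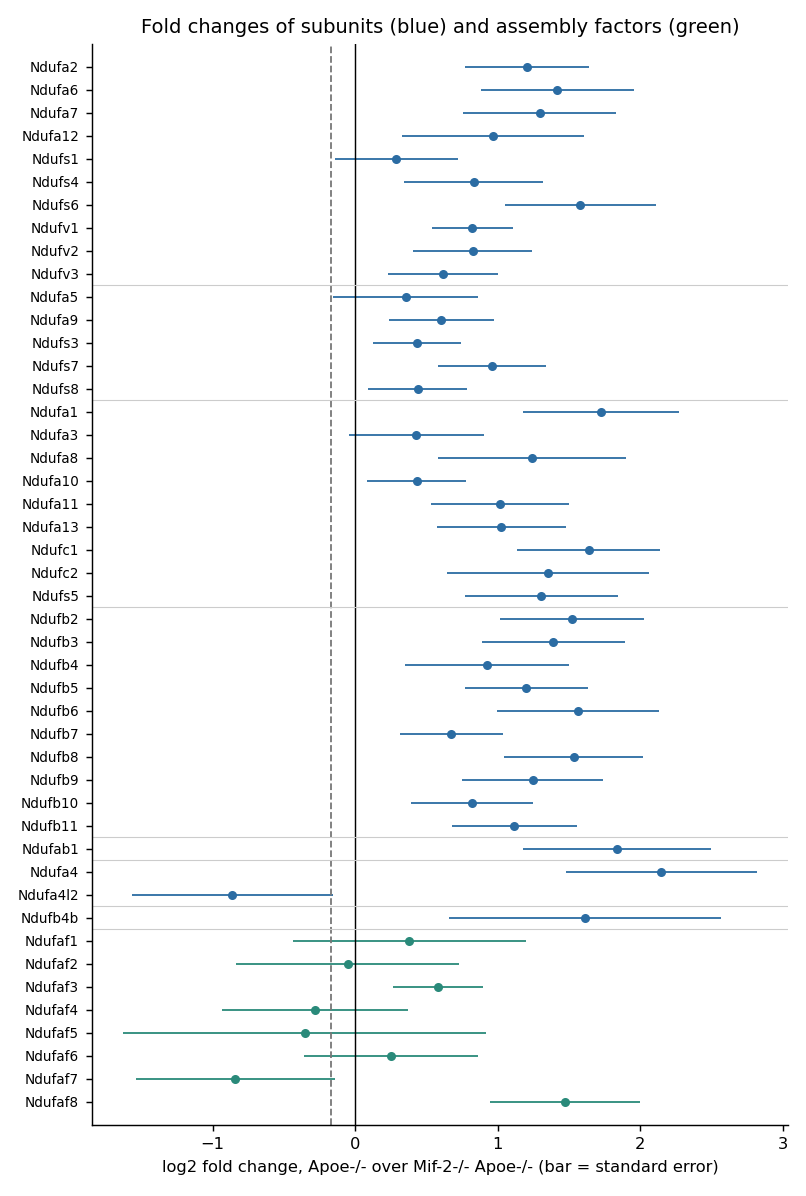
Points are log2 fold changes of Apoe-/- over Mif-2-/- Apoe-/- livers by edgeR with standard errors, for 46 genes in the order of the text, without Ndufb4c. The dashed line is the median of all genes, -0.17. Subunits lie between -0.86 and 2.15, most of them above 0, and assembly factors on both sides of 0.

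Levels of different members were compared here per kb of transcript, for the 46 genes with an annotated transcript. In Apoe-/- livers the median subunit was at 371 CPM per kb and the median assembly factor at 9.73 CPM per kb. In Mif-2-/- Apoe-/- livers the values were 134 and 12.3 CPM per kb. Subunits ran from 11.6 CPM per kb (Ndufa4l2) to 2381 CPM per kb (Ndufb7) in Apoe-/- livers. After Ndufb7 came Ndufa2 at 1701, Ndufa11 at 1373 and Ndufs7 at 1105 CPM per kb. Ndufs1 was at 14.4 CPM per kb, the lowest core subunit, and its transcript of 2661 bases was longer than those of the other core subunits.

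Single assembly factors differed in their order of libraries, while their sum, like that of the subunits, was highest in Apoe-/- replicates 1 to 4, followed by Mif-2-/- Apoe-/- replicate 2. Summed over the 8 genes, the level was 283, 287, 247, 303 and 183 CPM in Apoe-/- and 169, 224, 154 and 139 CPM in Mif-2-/- Apoe-/- livers, and Ndufaf3 and Ndufaf8 had the highest means of the 8. The ratio of subunit to assembly factor sums lay between 33.1 and 65.2 in Apoe-/- and between 24.0 and 57.5 in Mif-2-/- Apoe-/- livers. Apoe-/- replicate 5 was the lowest of its genotype in 38 of 40 subunits and 3 of 8 assembly factors, against 22.1% of all genes. Mif-2-/- Apoe-/- replicate 2 was the highest of its genotype in 38 of 40 and 4 of 8, against 24.3% of all genes. Both counts of 38 include Ndufb4c, at 0 counts in the former library and 2 in the latter.

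Ndufaf8, a small partner of Ndufaf5, was the assembly factor nearest to the subunits. It lies on chromosome 11 (plus strand) from 120098928 to 120100705, and was at 94.9, 139.7, 99.5, 119 and 44.3 CPM in Apoe-/- and 26.0, 82.9, 11.1 and 24.9 CPM in Mif-2-/- Apoe-/- livers. Again Apoe-/- replicate 5 fell below Mif-2-/- Apoe-/- replicate 2, and the log2 fold change was 1.47 (SE 0.53, edgeR adjusted p = 0.214). Without Mif-2-/- Apoe-/- replicate 2 it was 2.36 with an adjusted p of 0.0367. Ndufaf5, which hydroxylates an arginine of Ndufs7, was at 1.92, 6.70, 3.29, 0.202 and 4.26 CPM against 8.95, 0.568, 0 and 7.09 CPM. Both genotypes spanned nearly the whole range, and the log2 fold change of -0.35 (SE 1.27) took either sign when single libraries were left out.

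Ndufaf3 and Ndufaf4 act together on the early Q module. Ndufaf3 was at 114, 89.0, 69.0, 124 and 82.5 CPM in Apoe-/- and 52.7, 55.1, 85.4 and 62.9 CPM in Mif-2-/- Apoe-/- livers. This was a difference of 0.58 on the log2 scale (SE 0.32, edgeR adjusted p = 0.398). Here replicate 3 was the highest Mif-2-/- Apoe-/- library, above Apoe-/- replicates 3 and 5. Ndufaf4 was at 4.53, 13.3, 15.0, 12.1 and 11.4 CPM against 23.2, 12.5, 5.80 and 13.0 CPM, and its highest library was Mif-2-/- Apoe-/- replicate 1. For Ndufaf4 the log2 fold change was -0.28 (SE 0.65, edgeR adjusted p = 0.881).

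Ndufaf7, a methyltransferase that acts on a core subunit, was at 17.0, 6.84, 9.86, 11.3 and 2.90 CPM in Apoe-/- and 14.8, 34.6, 12.1 and 7.54 CPM in Mif-2-/- Apoe-/- livers. This was a difference of -0.84 on the log2 scale (SE 0.70, edgeR adjusted p = 0.601). Mif-2-/- Apoe-/- replicate 2 alone exceeded all Apoe-/- libraries. Ndufaf6, which acts on the early membrane arm, was at 36.4, 15.3, 30.0, 12.9 and 28.1 CPM against 34.6, 4.54, 30.5 and 12.1 CPM. Here Mif-2-/- Apoe-/- replicate 2 was the lowest of all, and the log2 fold change was 0.25 (SE 0.61, edgeR adjusted p = 0.884).

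Ndufaf1 belongs to the complex that assembles part of the membrane arm. It was at 7.82, 7.11, 13.1, 4.03 and 5.03 CPM in Apoe-/- and 5.49, 10.8, 2.52 and 4.12 CPM in Mif-2-/- Apoe-/- livers. This was a difference of 0.38 on the log2 scale (SE 0.82, edgeR adjusted p = 0.866). Ndufaf2, a paralog of Ndufa12 that binds late intermediates, was at 6.45, 8.71, 7.04, 20.4 and 4.84 CPM against 3.66, 22.7, 6.30 and 7.09 CPM. In each genotype 1 library stood far above the rest, and the log2 fold change of -0.05 (SE 0.78, edgeR adjusted p = 0.986) was within the spread of the libraries.

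Beyond the Ndufaf genes, 11 other assembly factors of complex I were tested, and 0 were called by either tool. Their median log2 fold change was 0.40, and 7 of 11 lay above 0. The largest were Tmem126b (1.38, SE 1.20) and Dmac1 (1.38, SE 0.56) and the smallest Dmac2 (-0.86, SE 0.34) and Nubpl (-0.87, SE 1.09). Nubpl, which inserts iron-sulfur clusters into complex I, was at 2.51 CPM or less in each library.

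The core subunits encoded by the mitochondrial genome did not share the direction of the nuclear ones. Of these, 5 were tested, and each had the lower mean in Apoe-/- livers, with a median log2 fold change of -0.59 and no call by either tool. ND4 was at 573, 713, 743, 642 and 1093 CPM in Apoe-/- and 1304, 959, 638 and 1215 CPM in Mif-2-/- Apoe-/- livers. ND1 was at 185, 197, 256, 269.5 and 325 CPM against 391, 302, 218 and 275 CPM. Apoe-/- replicate 5 was the highest of its genotype in both, where it was the lowest for most nuclear subunits. Log2 fold changes were -0.45 (SE 0.31) for ND4 and -0.27 (SE 0.29) for ND1, with edgeR adjusted p-values of 0.512 and 0.711, and lay from -0.59 to -0.85 for ND2, ND5 and ND6. ND2 and ND6 were low, with means of 6.42 and 3.10 CPM in Apoe-/- and 11.6 and 5.52 CPM in Mif-2-/- Apoe-/- livers.

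The other respiratory complexes and ATP synthase showed the same direction as the nuclear subunits of complex I, again with 0 genes called by edgeR. All 3 tested complex II subunits, 8 of complex III, 10 of complex IV and 15 of ATP synthase had the higher mean in Apoe-/- livers, with median log2 fold changes of 1.51, 1.06, 1.35 and 0.93. DESeq2 called 2, 1, 2 and 3 of them: Sdhc and Sdha of complex II, Uqcrh of complex III, Cox5a and Cox8a of complex IV, and Atp5g3, Atp5d and Atp5b of ATP synthase. Over all genes it called 2.52% higher in Apoe-/- livers, and 14.2% among genes up to 1 kb at 50 CPM or more. Sdhc, a membrane anchor of complex II, did not overlap between the genotypes, at 213, 261, 247, 420.1 and 142 CPM in Apoe-/- and 75.8, 112, 48.1 and 73.6 CPM in Mif-2-/- Apoe-/- livers. The log2 fold change of 1.73 (SE 0.37) had adjusted p-values of 0.104 (edgeR) and 0.000670 (DESeq2). Every Apoe-/- library lay above the others in 2.24% of all genes.

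A list of 13 genes used to gauge mitochondrial mass (outer and inner membrane, import, chaperones and citrate synthase) had a smaller median of 0.65, with 11 above 0. DESeq2 called Phb and Vdac1 of the 13 higher in Apoe-/- livers, where it called 2.52% of all genes. Hspe1 (1.28, SE 0.62) was the highest of the 13 and Tomm40 (-0.41, SE 0.32) the lowest. Their transcripts ran from 774 bases (Hspe1) to 4902 bases (Tomm20), and all except Hspe1 were over 1 kb. Medians of all tested genes were 0.14 over 1 to 2 kb, -0.18 over 2 to 4 kb and -0.46 over 4 kb. The smaller median was thus not matched for length with that of the subunits. For the 77 mitochondrial ribosomal proteins the median was 0.60 and the 94 cytosolic ones 0.67. Of 14 genes of iron-sulfur cluster assembly, which supplies the N and Q modules, the median was 0.53. Among them DESeq2 called Fdxr, the ferredoxin reductase, which was lower in each Apoe-/- library, at 269, 317, 142, 179 and 277 CPM against 703, 334, 622 and 744 CPM (log2 fold change -1.34, SE 0.33, edgeR adjusted p = 0.136, DESeq2 adjusted p = 0.00260).

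Regulators of respiratory genes did not follow the subunits, with 1 of 9 above 0 and a median log2 fold change of -0.40. Their transcripts are long, from 2242 bases (Esrra) to 6464 bases (Ppargc1a). All tested genes over 2 to 4 kb and over 4 kb had medians of -0.18 and -0.46, so the list median was near that of genes of its length. Ppargc1b, which encodes the coactivator PGC-1beta, was at 9.74, 8.58, 21.6, 5.04 and 17.2 CPM in Apoe-/- and 61.4, 52.8, 100.3 and 57.8 CPM in Mif-2-/- Apoe-/- livers. The genotypes were well apart, and the log2 fold change of -2.47 (SE 0.48) had adjusted p-values of 0.0731 (edgeR) and 0.000115 (DESeq2). Tfam (0.34, SE 0.66) and Yy1 (-0.19, SE 1.09) were the highest of the list and Gabpb1 (-0.68, SE 0.74) the lowest after Ppargc1b.

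Transcript length went with the size of the fold change. The 24 subunits with transcripts of up to 1 kb showed a median of 1.24 in log2 fold change, and the 14 longer ones 0.83. Over all genes tested the median was 0.55 up to 1 kb, 0.14 over 1 to 2 kb, -0.18 over 2 to 4 kb and -0.46 over 4 kb. Among the 374 short genes at a mean of 50 CPM or more, like most subunits, the median was 0.84, 91.7% lay above 0 and 42.5% had an unadjusted p-value under 0.05 with the higher level in Apoe-/- livers. In these, Apoe-/- replicate 5 was the lowest of its genotype in 86.4% and Mif-2-/- Apoe-/- replicate 2 the highest in 74.6%. DESeq2 called 14.2% of these short genes higher in Apoe-/- livers, and 5.61% had every Apoe-/- library above the others. For the subunits the shares were 10% and 2.5%. Exceptions lay on both sides: Ndufab1 (3479 bases, 1.84) and Ndufb8 (2142 bases, 1.53) were long with a high log2 fold change, and Ndufa4l2 (934 bases, -0.86), Ndufa5 (875 bases, 0.36), Ndufa3 (515 bases, 0.43) and Ndufs8 (983 bases, 0.44) short with a low one.

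**Figure D5:**
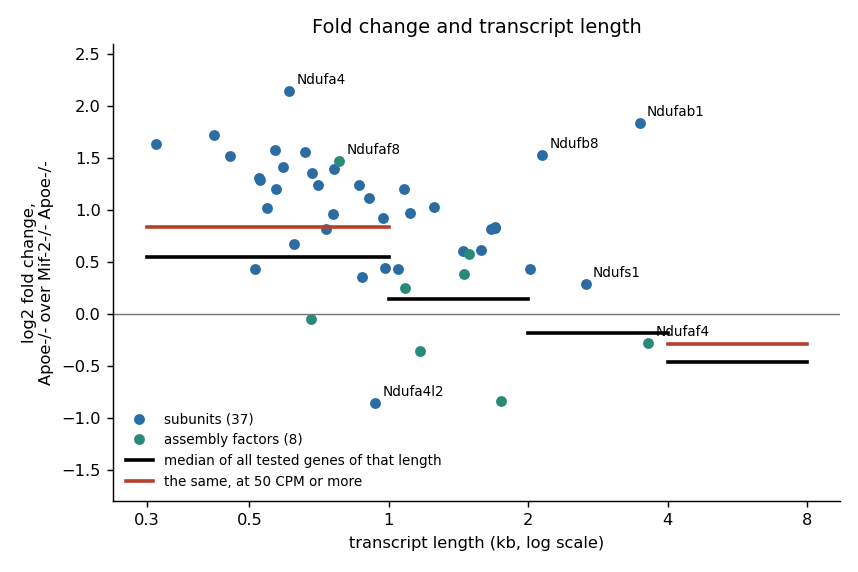
Each point is a subunit (blue, 37) or assembly factor (green, 8) by the length of its transcript (log scale) and its log2 fold change of Apoe-/- over Mif-2-/- Apoe-/- livers. Lines give the median of all tested genes by length class, black for all and red for those at 50 CPM or more. The outer classes, up to 1 kb and over 4 kb, are open and drawn from 0.3 and to 8 kb. Most subunits up to 1 kb lie above both medians of their class, 0.55 and 0.84.

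Markers of hepatocytes took 14.9%, 15.0%, 16.9%, 17.7% and 9.09% of the counts in Apoe-/- and 9.81%, 19.4%, 8.21% and 10.7% in Mif-2-/- Apoe-/- libraries, so the 5 libraries with the highest subunit sums also had the highest marker shares. Of the 12 hepatocyte markers only 7 were tested as single genes. Alb, Apoa1, Apoa2, Ttr and Trf are among the 10 most abundant genes left out of the tests. The marker share thus overlaps the share of those 10 genes and is not a separate measure. The 7 tested markers did not share 1 direction. On the log2 scale 5 of the 7 lay above 0 and their median was 0.19, from -1.18 (Pck1) to 0.87 (Serpina1c). Pck1 was lower in each Apoe-/- library than in any Mif-2-/- Apoe-/- library, with adjusted p-values of 0.171 (edgeR) and 0.0211 (DESeq2). Markers of endothelial cells took 0.0248%, 0.0251%, 0.0176%, 0.0134% and 0.0324% in Apoe-/- and 0.0435%, 0.0116%, 0.0240% and 0.0279% in Mif-2-/- Apoe-/- libraries, lowest in Mif-2-/- Apoe-/- replicate 2 and Apoe-/- replicate 4, where the subunits were high. Of these 8 markers, 5 had a log2 fold change above 0. Markers of cholangiocytes, of stellate cells and of Kupffer cells and macrophages did not share this order. They took 0.00899%, 0.0345% and 0.126% in Apoe-/- replicate 5. In Mif-2-/- Apoe-/- replicate 2 they took 0.0231%, 0.0452% and 0.148%, and in replicate 3, with the lowest subunit sum, 0.0310%, 0.0528% and 0.151%. Malat1, Neat1 and Kcnq1ot1, RNAs kept in the nucleus, took 0.195% in Apoe-/- replicate 5 and 0.130% to 0.242% in Mif-2-/- Apoe-/- replicates 1, 3 and 4, but 0.0408% to 0.0705% in the other 5 libraries. The part of these shares, of transcript length and of depth in the difference was not tested beyond the fit with the top-gene share. In bulk tissue, fewer cells of a type and less RNA per cell cannot be told apart.

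The promoters of members were read for motifs of factors known to regulate respiratory genes, since most subunits shared the same high and low libraries. RefSeq promoters (GRCm38.p6) were given for 41 of the 48 genes, and the 250 bases before the start were searched on both strands for CGCATGCG (NRF1), CCGGAAG (the ETS family, to which GABP belongs), AAGATGGCG (YY1) and AAGGTCA (estrogen-related receptors). Of 34 subunits, 2 held the NRF1 letters (5.88%, against 2.32% of 17492 protein-coding genes), 3 the ETS letters (8.82% against 10.2%), 0 the YY1 letters (0.84%) and 3 those of estrogen-related receptors (8.82% against 4.18%). Of 7 assembly factors, 1 held the NRF1 and 2 the ETS letters. At least 1 of these motifs was present in 8 of 34 subunits (23.5%), against 16.4% of all genes. A match is a description of letters only.

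Windows of 120 bases before the start are shown for Ndufa1 and Ndufb6, with large fold changes and none of the motifs in the window, for Ndufa11 and Ndufaf4, which hold the NRF1 letters, and for Ndufaf1, which holds the ETS letters. Each is written 5′ to 3′ on the strand of the gene, and capitals mark a motif. None overlaps the annotated span of its own gene, and overlap with other genes was not checked. Ndufa1 is at chrX:37191239-37191358 (minus), Ndufb6 at chr4:40279422-40279541 (minus), Ndufa11 at chr17:56717642-56717761 (plus), Ndufaf4 at chr4:24897963-24898082 (plus) and Ndufaf1 at chr2:119662835-119662954 (minus).
Ndufa1: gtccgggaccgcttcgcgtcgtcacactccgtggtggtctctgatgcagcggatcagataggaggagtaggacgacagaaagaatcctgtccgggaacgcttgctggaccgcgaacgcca
Ndufb6: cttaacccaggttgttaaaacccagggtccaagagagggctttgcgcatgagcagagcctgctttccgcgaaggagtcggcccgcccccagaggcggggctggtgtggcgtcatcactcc
Ndufa11: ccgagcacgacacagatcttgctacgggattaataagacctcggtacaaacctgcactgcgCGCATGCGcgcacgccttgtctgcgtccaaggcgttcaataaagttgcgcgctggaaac
Ndufaf4: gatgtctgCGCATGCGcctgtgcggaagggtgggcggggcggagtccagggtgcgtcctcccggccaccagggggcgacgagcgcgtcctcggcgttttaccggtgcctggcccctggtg
Ndufaf1: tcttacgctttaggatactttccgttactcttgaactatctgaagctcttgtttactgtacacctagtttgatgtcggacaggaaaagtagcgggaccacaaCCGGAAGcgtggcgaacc

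The NRF1 letters thus stood before a subunit with a log2 fold change of 1.02 (Ndufa11) and before an assembly factor at -0.28 (Ndufaf4). In Ndufa11 they lie 59 to 52 bases before the start and in Ndufaf4 112 to 105 bases before it. The ETS letters of Ndufaf1 lie 18 to 12 bases before its start, and those of Ndufb6 lie farther out than the window, 232 to 226 bases before the start.

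Exons of 17 of the 48 genes overlap a gene on the opposite strand and those of 3 a gene on the same strand, and without strand their reads cannot be told apart. The longest such overlaps were of Ndufaf2 with B230220B15Rik (1955 bases) and of Ndufb5 with Mrpl47 (616 bases), and Ndufs1 overlaps Ino80dos over 489 bases.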

How the data were processed

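The authors deposited 1 table of raw counts per gene for 9 liver libraries. Per the submitters' processing notes, reads were handled with FastQC, cutadapt and HISAT2 on mm10. The counting tool, its strand setting and the tool versions are not given in the sources used here. One line without an identifier was left out, and 25275 identifiers had a symbol.

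The 10 genes with the highest mean were left out of library sizes and tests. Genes with at least 1 count in 3 libraries of either genotype were kept (16860). Genotypes were compared with TMM scaling and the quasi-likelihood test of edgeR 4.0.16 in R 4.3.3 over all these genes, at a Benjamini-Hochberg adjusted p of 0.05, two-sided. DESeq2 1.42.0 was an alternative and gave an adjusted p to 14030 genes, leaving 9102 without one. CPM were on the edgeR scale, and 0.5 was added before log2 in the heat map. The floor of 3 counts equals 0.279 to 1.29 CPM, covering counting error only. The code was tested on simulated data.

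Coordinates and lengths came from GENCODE M21 (GRCm38), for 46 genes. Length was that of the longest transcript matched to a curated RefSeq mRNA, or else of the longest transcript. Which transcript the liver uses was not determined. Members and lists were chosen with earlier results of these data known. Values per library are given for the core nuclear subunits (1 gene is counted in the lists but not reported here by name or in the figures of single genes), the 4 other subunits with the largest and the 4 with the smallest fold change at a mean of 10 CPM or more, each Ndufaf gene, Ndufa4, Ndufa4l2 and Ndufab1. In the pathway lists, genes called by either tool are named, otherwise the 2 highest and the 2 lowest. Alternatives were other scalings, filters and tools, a replicate block, and leaving out each library. No 2 libraries were duplicates (largest correlation of log2 CPM 0.9419).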

Additional observations from a re-analysis of the deposited data

Results flagged for a closer look

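In 8 of 56 groups of libraries tested among the named genes and the summed levels, 1 library stood farther from the others than Dixon's 95% limit allows. Chance gives about 1 in 20 for independent groups. These groups share the same 9 libraries, so the 8 cannot be set against that rate. In 6 of the 8 the library was Mif-2-/- Apoe-/- replicate 2, the highest of its genotype for Ndufs8 (572 CPM), Ndufa1 (120.4 CPM), Ndufb6 (218 CPM), Ndufa10 (219 CPM), Ndufa4 (204 CPM) and Ndufab1 (128 CPM). In the other 2 it was Apoe-/- replicate 4, the highest of its genotype for Ndufv2 (204 CPM) and Ndufaf2 (20.4 CPM).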

How the results depend on the processing

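With other scalings and filters edgeR called 25 to 32 genes in place of 22, and 0 subunits. DESeq2 called 739 genes, or 690 among the filtered ones, and 4 subunits either way. Leaving out single libraries gave 9 to 262 genes, 0 to 11 subunits and 0 to 1 assembly factors by edgeR, and 0 to 28 subunits and 0 to 1 assembly factors by DESeq2. The genes called were 11, 14, 9, 11 and 126 without Apoe-/- replicates 1 to 5, and 262 and 13 without Mif-2-/- Apoe-/- replicates 2 and 3. DESeq2 called 18 subunits without Apoe-/- replicate 5, 28 without Mif-2-/- Apoe-/- replicate 2 and 0 to 2 without any other library. The number of all genes called in these DESeq2 fits was not taken, so no share stands beside them. The subunit median ran from 0.91 to 1.74 and that of the assembly factors from -0.04 to 0.34. The counts of subunits and of assembly factors called thus rested on which libraries were kept, while the subunit median stayed above 0 in each fit.

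Both alternatives that follow were chosen after seeing the data. Without both Apoe-/- replicate 5 and Mif-2-/- Apoe-/- replicate 2, edgeR called 1345 genes, 32 subunits and 1 assembly factor, with a subunit median of 1.95. With the top-gene share as covariate it called 35 genes. With a replicate block, which leaves out Apoe-/- replicate 5, edgeR called 505 genes, 19 subunits and 1 assembly factor. Same-numbered libraries share only a number, with correlations of their deviations of 0.124, 0.00819, 0.0613 and -0.0120, and not every library correlated best with its own number.

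Of 520 values for 26 named genes, 464 kept direction and call, 36 gained a call and 20 turned direction, none of these with an adjusted p under 0.05. Ndufa5 turned with the covariate (-0.10). Ndufaf2 turned under TMMwsp scaling (0.094), with the top genes kept (0.045), with mitochondrial, rRNA, Gm and Rik genes removed (0.044), with the replicate block (0.29) and without both libraries (1.01), and ran from -0.47 to 0.84 without single ones. Ndufaf4 ran from -0.53 to 0.11 and Ndufaf5 from -0.76 to 0.33 without single libraries, and Ndufaf5 was 0.13 with the replicate block and 0.49 with the covariate. Without both libraries Ndufaf6 was -0.031 and Ndufaf7 0.070. The cause was not tested. Ndufaf5 had 3 counts or fewer in 3 of 9 libraries, at or under the floor.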
